A study of Mus musculus with 18 samples.

Results

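The semaphorins, plexins and neuropilins form a ligand and receptor system encoded by 31 of the 38355 genes counted in mouse embryonic cortex. The members were taken by a rule on gene symbols, which was set with earlier results of these data known: 20 semaphorins, 9 plexins and 2 neuropilins. Bulk RNA sequencing had been carried out on dissected cortex of C57BL/6 embryos at E12.5 (embryonic age in days), and the 18 libraries fell into 4 genotypes. They comprised 4 wild-type (WT) libraries, 5 homozygous for loss of Dmrt3 (Dmrt3-/-, Dmrt3 KO), 4 homozygous for loss of Dmrt5 (Dmrt5-/-, Dmrt5 KO) and 5 lacking both genes (Dmrt3-/-;Dmrt5-/-, double KO). Dmrt3 and Dmrt5 are related zinc finger transcription factors of the dorsal telencephalon, and the current symbol of Dmrt5 is Dmrta2. How the mutant alleles were made, and whether the libraries of a genotype came from separate embryos or litters, is not given in the sources used here, and all p-values therefore rest on the spread among these libraries, which may be technical. The comparisons asked which of the guidance genes differed when either factor was lost, when both were lost, and whether the effect of both losses departed from the sum of the single ones.

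Semaphorins are guidance proteins that are secreted (class 3), span the membrane (classes 4, 5 and 6) or are anchored to it by a lipid (class 7). They signal through plexins, transmembrane receptors whose intracellular part acts on small GTPases and thereby on the cytoskeleton. Most class 3 semaphorins bind their plexin through a neuropilin, whereas Sema3e can bind Plxnd1 directly. In the developing forebrain this system is known for steering axons, migrating neurons and growing blood vessels.

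The libraries held 19602718 to 33072896 counts, and levels are given as CPM, counts scaled to library depth with the trimmed mean of M-values. The targeted transcripts followed the labels: Dmrt3 stood at 52.0 to 61.8 CPM in WT and at or below 0.398 CPM in both genotypes that lack it, and Dmrta2 stood at 159 to 220 CPM in WT and at 1.66 to 25.1 CPM in both genotypes that lack it, with the highest of these in Dmrt5 KO replicate 1. Emx1, a factor of the dorsal cortex, stood at 113 to 180 CPM in WT and 4.60 to 12.4 CPM in the double KO. Some libraries stood apart. WT replicate 2 and Dmrt5 KO replicate 1 held transcripts of both sexes (Xist 462 and 26.7 CPM, Ddx3y 2.45 and 20.7 CPM). WT replicate 4 and double KO replicate 5 had the steepest slopes of log2 CPM on log2 exon length relative to the other libraries (0.24 and 0.33 per doubling of length), and WT replicate 2 had the lowest (-0.20). Double KO replicate 4 held 2108 CPM summed over 10 mesenchyme markers, against 37.1 to 350 CPM in the other double KO libraries, and none of these markers was at 0 in all libraries. A gene was called when its p from edgeR's quasi-likelihood test, adjusted over 16236 tested genes by the Benjamini-Hochberg method, was under 0.05.

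Of the 30 genes that could be tested, 4 were called in at least 1 of 6 comparisons, against 7.14% of all 16236 tested genes. Sema4a and Sema6c, both membrane-spanning ligands, were higher in the double KO than in WT, by 1.84-fold and 1.56-fold. Plxnd1, the receptor best known from blood vessels, was 2.20-fold lower in the double KO than in WT. Plxnc1, the receptor of Sema7a, was 1.78-fold higher in the double KO than in Dmrt3 KO. No member was called in Dmrt3 KO against WT, where 0.0123% of all tested genes were. The sequences just before the start sites of these 4 genes are shown to place the genes in the genome and to let their base composition be compared. Each run gives the 250 bases before the RefSeq start site on the gene's own strand (RefSeq, GRCm38.p6), 5′ to 3′, with CpG dinucleotides in capitals.
Sema4a: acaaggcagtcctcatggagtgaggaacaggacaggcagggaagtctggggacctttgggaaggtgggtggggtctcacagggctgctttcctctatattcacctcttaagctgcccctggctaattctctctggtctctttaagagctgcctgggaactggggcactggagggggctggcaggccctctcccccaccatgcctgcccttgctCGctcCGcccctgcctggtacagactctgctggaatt
Sema6c: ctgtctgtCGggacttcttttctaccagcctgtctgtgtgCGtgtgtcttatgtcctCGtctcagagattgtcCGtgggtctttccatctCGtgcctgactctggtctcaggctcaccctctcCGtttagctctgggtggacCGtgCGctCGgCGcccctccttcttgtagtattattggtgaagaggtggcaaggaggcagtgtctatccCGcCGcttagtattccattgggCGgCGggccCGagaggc
Plxnd1: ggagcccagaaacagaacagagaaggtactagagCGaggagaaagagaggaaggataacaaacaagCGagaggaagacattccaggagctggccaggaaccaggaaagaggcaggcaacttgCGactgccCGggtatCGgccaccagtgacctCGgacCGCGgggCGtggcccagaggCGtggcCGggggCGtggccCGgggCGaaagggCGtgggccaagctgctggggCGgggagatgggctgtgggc
Plxnc1: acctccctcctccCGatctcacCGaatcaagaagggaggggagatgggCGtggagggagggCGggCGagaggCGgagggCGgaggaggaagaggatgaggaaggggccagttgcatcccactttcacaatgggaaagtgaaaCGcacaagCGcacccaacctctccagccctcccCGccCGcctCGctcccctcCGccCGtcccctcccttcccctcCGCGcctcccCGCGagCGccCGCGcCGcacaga
They lie at chr3:88461183-88461432 (minus strand, Sema4a), chr3:95160170-95160419 (plus strand, Sema6c), chr6:115995006-115995255 (minus strand, Plxnd1) and chr10:94944846-94945095 (minus strand, Plxnc1). The Sema4a stretch held 2 CpG dinucleotides, that of Sema6c 15, that of Plxnd1 16 and that of Plxnc1 22, against a median of 6 over 32851 promoters of the table and of 13 over the 37 member promoters it lists. A promoter was listed for 26 of the 31 members. The letters GATACA, a core shared by binding matrices of Dmrt factors, were searched on both strands of windows that reach from 250 bases before to 50 bases after a start, and occurred in 7.3% of all promoters and in 1 member, Sema4b. The homeodomain core TAATTA occurred in 5.29% of promoters and in no member, and CAGATG, an E-box bound by Neurog factors, in 17.2% and in Sema3c and Sema4a, the latter at a start site downstream of the one shown. A match in these windows is a description of the letters only.

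In WT cortex, with levels compared per kilobase of exon, a pair of class B plexins ranked above all ligands. Plxnb2, a receptor of class 4 semaphorins, led with 51.1 ± 11.4 CPM per kb (SD, n = 4), followed by Plxnb1 with 31.2 ± 9.08. The highest ligands were Sema6c with 28.3 ± 2.72, Sema4c, a partner of Plxnb2, with 25.4 ± 3.60, and Sema5b with 22.9 ± 4.53. Among the class A plexins, which pair with neuropilins or with class 6 semaphorins, the order was Plxna1 (22.9 ± 6.04), Plxna3 (17.7 ± 6.95), Plxna2 (10.04 ± 4.09) and Plxna4 (2.88 ± 2.24). Nrp2, the co-receptor that favours Sema3f, stood at 9.76 ± 4.15 CPM per kb and Nrp1, which favours Sema3a, at 4.27 ± 1.11. All 7 secreted class 3 ligands ranked below both of the leading class B plexins: Sema3f was the highest of them at 6.93 ± 0.950, and Sema3d and Sema3e were the lowest at 0.179 ± 0.0999 and 0.169 ± 0.0497. Plxnb3 came last at 0.0305 ± 0.0254 CPM per kb. It held 0 to 15 counts per library, was removed by the filter on low counts, and was not tested, which left 30 tested members. The order is coarse: of 30 neighbouring pairs in it, only 3 did not overlap between the WT libraries (Sema3a above Sema3b, Sema3b above Sema3d, Sema3e above Plxnb3). The median over the 30 tested members was 6.85 CPM per kb, and over all tested genes it was 5.12.

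**Figure D1:**
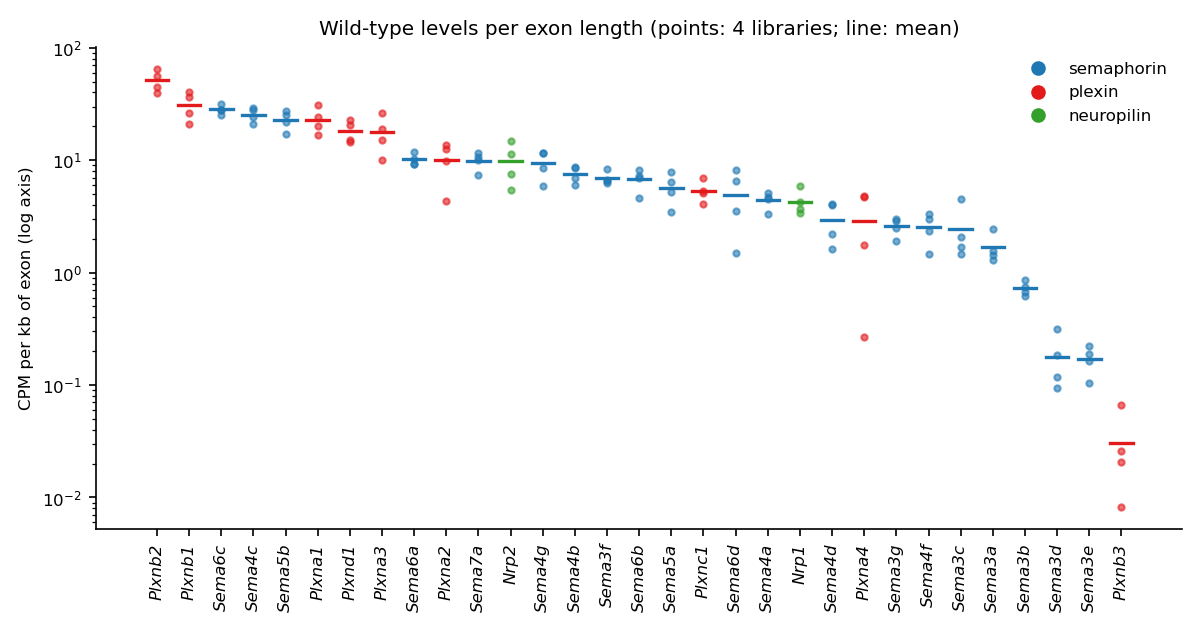
Levels of the 31 genes in WT cortex in CPM per kilobase of exon (log axis); points are the 4 libraries, lines their means, and colours mark semaphorins, plexins and neuropilins. Plxnb2 stands highest at 51.1 and Plxnb3 lowest at 0.0305 CPM per kb, and most neighbours overlap.

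Among the ligands, Sema4a gave the lowest adjusted p against WT. Sema4a (ENSMUSG00000028064, chromosome 3, 88435959 to 88461182) encodes a class 4 membrane protein known from immune cells and the retina. Its WT libraries held 27.7, 17.9, 24.5 and 25.2 CPM, and the Dmrt3 KO libraries 33.3, 29.1, 29.0, 28.7 and 20.9 CPM. The Dmrt5 KO libraries held 35.8, 39.2, 36.2 and 47.0 CPM, and the double KO libraries 43.2, 50.4, 39.5, 31.7 and 54.8 CPM. All Dmrt5 KO and all double KO libraries lay above every WT library, and the Dmrt3 KO libraries overlapped WT. In the double KO the log2 fold change against WT was 0.88 (SE 0.17, edgeR adjusted p = 0.00409), and this call held when each of the 9 libraries was left out in turn (adjusted p from 0.00106 to 0.0146). The Dmrt5 KO difference was 0.73 (SE 0.18, edgeR adjusted p = 0.0626), not past the threshold, although DESeq2 gave an adjusted p of 0.00756. In Dmrt3 KO it was 0.24 (edgeR adjusted p = 0.654). The double KO was also 1.56-fold above Dmrt3 KO (log2 0.64, SE 0.16, edgeR adjusted p = 0.0311), a call that was lost in 7 of 10 fits with a library left out: those without Dmrt3 KO replicate 2, 3, 4 or 5 and those without double KO replicate 1, 2 or 5 (adjusted p up to 0.0881). Because these are bulk libraries, fewer cells of a type and less RNA per cell cannot be told apart for this or any other difference below.

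Sema6c (ENSMUSG00000038777, chromosome 3, 95160457 to 95174024), a class 6 membrane ligand and the third highest member per length in WT, showed its highest levels in Dmrt5 KO and the double KO. WT libraries held 166, 149, 189 and 167 CPM and Dmrt3 KO libraries 222, 195, 219, 192 and 164 CPM. Dmrt5 KO libraries held 297, 257, 250 and 306 CPM, and double KO libraries 236, 366, 244, 178 and 288 CPM. Every Dmrt5 KO library lay above every WT library, whereas double KO replicate 4 fell within the WT range. Its log2 fold change was 0.73 in Dmrt5 KO (SE 0.17, edgeR adjusted p = 0.0485) and 0.64 in the double KO (SE 0.16, edgeR adjusted p = 0.0222). Both calls lay near the threshold. The Dmrt5 KO call was lost in all 8 fits with a library of either genotype left out (adjusted p 0.0681 to 0.171), and was 0.203 without the 2 libraries that held transcripts of both sexes. The double KO call was lost in 4 of 9 such fits, those without WT replicate 1, 2 or 4 or double KO replicate 2 (adjusted p up to 0.0689). Without the libraries of both sexes its adjusted p was 0.078, and without the 2 libraries of steepest length slope 0.0774. Between the double KO and Dmrt5 KO, Sema6c differed by -0.08 on the log2 scale (SE 0.16, edgeR adjusted p = 0.997).

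Sums of cell type markers were read beside both ligands. The summed CPM of 14 subpallium markers (such as Dlx2, Gsx2 and Gad2) ranged from 931 to 1241 in WT and 934 to 1477 in Dmrt3 KO, but from 1718 to 2133 with Dmrt5 lost and from 1863 to 3397 with both lost, and edgeR called 6 of the 14 higher in Dmrt5 KO and 13 of 14 in the double KO against WT. The summed CPM of 12 pan-neuronal markers ranged from 3738 to 4602 in WT and from 3614 to 8366 in the double KO, with 2 of 12 called higher. Sums of 12 glutamatergic lineage markers ranged from 753 to 1586 in WT and 369 to 803 in the double KO, where 9 of 12 were called lower. Among all tested genes, 0.339% were called higher in Dmrt5 KO against WT. In the double KO against WT 2.42% were called higher and 3.81% lower. No marker of these lists was at 0 in all libraries. Double KO replicate 4 was the lowest of its genotype for Sema4a, Sema6c and each of these sums, pan-neuronal and glutamatergic as well as subpallium. It also held the most mesenchyme marker transcripts of its genotype. The part of these cell populations in the ligand values was not tested.

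Against WT, the other 18 semaphorins gave no call in any genotype. Of the class 3 ligands, 5 of 7 had log2 values above 0 when Dmrt3 was lost, 2 of 7 when Dmrt5 was lost and 4 of 7 in the double KO, where they ran from -0.58 (Sema3g, edgeR adjusted p = 0.326) to 0.64 (Sema3e, adjusted p = 0.479). Class 4 values in the double KO lay above 0 for 5 of 6, with Sema4d, a partner of Plxnb1, as the exception at -0.40. Sema5a and Sema5b stood at -0.46 and 0.18. In class 6, the log2 value of Sema6b was 0.61 in Dmrt5 KO, where its 4 libraries (35.2 to 47.1 CPM) lay above the WT libraries (18.5 to 32.6 CPM), and 0.55 in the double KO, with edgeR adjusted p of 0.371 and 0.256. Sema6d had the opposite sign, at -0.58, -0.78 and -0.67 in Dmrt3 KO, Dmrt5 KO and the double KO, and its WT libraries ranged from 15.6 to 86.7 CPM. Sema6a, a ligand of Plxna2 and Plxna4, stood at 0.16 in the double KO, and Sema7a, the class 7 ligand of Plxnc1, at 0.23.

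**Figure D2:**
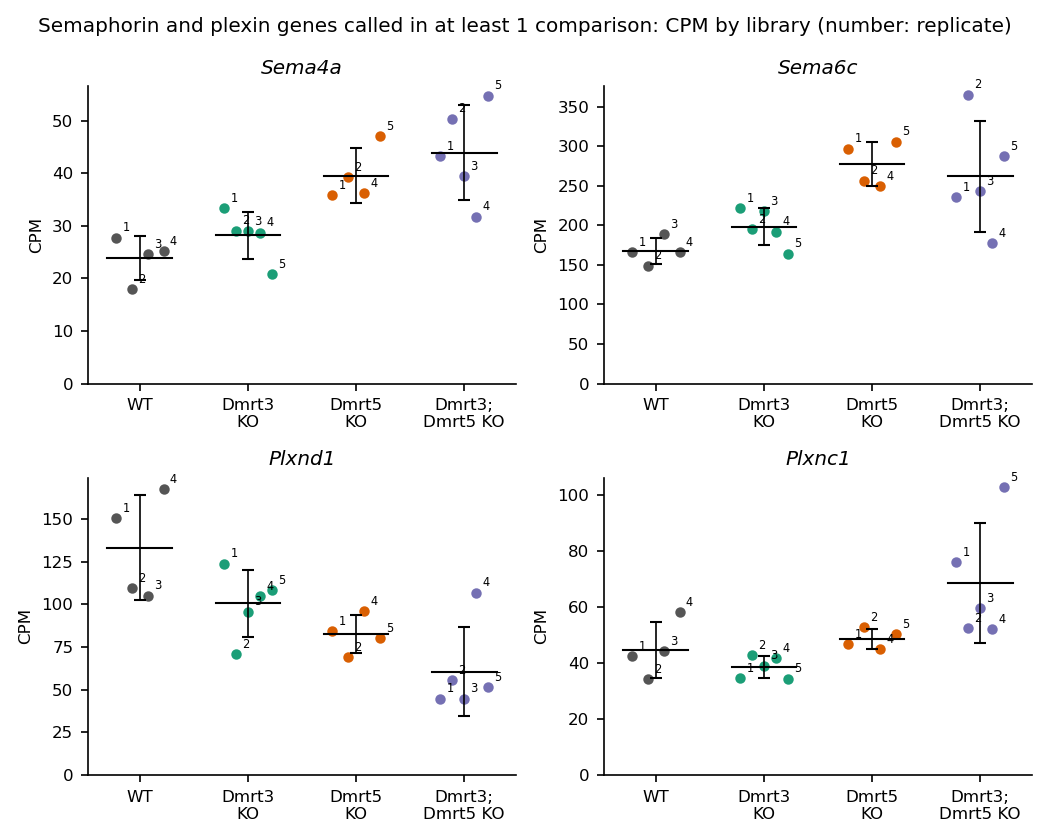
CPM of the 4 called genes in each of the 18 libraries by genotype; numbers are replicates, lines the mean and bars the SD. Sema4a separates the double KO (31.7 to 54.8) from WT (17.9 to 27.7), and double KO replicate 4 stands at 107 CPM of Plxnd1 while the other 4 lie between 44.7 and 55.5.

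Among the receptors, Plxnd1 (ENSMUSG00000030123, chromosome 6, 115954811 to 115995005), which binds Sema3e and is known for patterning blood vessels, was the only one called against WT. Its WT libraries held 151, 109, 105 and 168 CPM, and the Dmrt3 KO libraries 124, 70.6, 95.7, 105 and 108 CPM. Dmrt5 KO libraries held 84.3, 69.1, 96.0 and 80.1 CPM, and double KO libraries 44.7, 55.5, 44.7, 107 and 51.4 CPM. All Dmrt5 KO libraries lay below the WT range, and in the double KO 4 of 5 did, replicate 4 lying inside it. In the double KO Plxnd1 fell by 1.14 on the log2 scale against WT (SE 0.24, edgeR adjusted p = 0.00641). This call held in all 9 fits with a library left out (adjusted p 8.43e-05 to 0.0246, and a log2 value of -1.44 without double KO replicate 4). It was lost when only the libraries of WT and the double KO were fitted (adjusted p = 0.0788) and without the 2 libraries of steepest length slope (log2 -0.92, adjusted p = 0.0597). Without the library richest in mesenchyme markers of each genotype it was -1.29 (adjusted p = 0.000682). Differences from WT were -0.40 in Dmrt3 KO (SE 0.24, edgeR adjusted p = 0.65) and -0.69 in Dmrt5 KO (SE 0.25, adjusted p = 0.268), neither called. Against Dmrt3 KO the double KO stood at -0.73 (edgeR adjusted p = 0.0923), and at -1.04 without double KO replicate 4 (adjusted p = 0.00127). DESeq2 placed this comparison at an adjusted p of 0.0478, and the edgeR fit with the length covariate at 0.0316.

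Levels of blood vessel markers were read beside Plxnd1. The summed CPM of 10 endothelial markers (such as Pecam1, Cdh5 and Cldn5) ranged from 344 to 400 in WT. It ranged from 285 to 436 in Dmrt3 KO and 277 to 394 in Dmrt5 KO, and double KO sums from 152 to 404. Double KO replicate 4, with the most Plxnd1 of its genotype, also held the highest of these sums. The means were 367 ± 24.3 CPM in WT (SD, n = 4) and 252 ± 93.3 CPM in the double KO (n = 5), with an exact two-sided permutation p of 0.0556, or 0.167 adjusted over 3 genotypes. None of the 10 markers was called against WT in any genotype, and none was at 0 in all libraries. Expressed as a percentage of the endothelial sum, Plxnd1 stood at 36.5 ± 9.17% in WT (SD), while the means were 26.5 ± 1.90% for Dmrt3 KO, 25.2 ± 0.782% for Dmrt5 KO and 24.5 ± 6.26% for the double KO. The exact two-sided permutation p against WT was 0.0238, 0.0286 and 0.0635 in that order, or 0.0429, 0.0429 and 0.0635 adjusted over the 3. For Dmrt5 KO, 0.0286 is the lowest p that this test can give with 4 libraries on each side, so these p-values do not rank the genotypes. The ratio was computed after the Plxnd1 values had been seen, so these p-values do not cover the choice of the gene. The 3 comparisons share the WT libraries, and WT itself spread from 27.3 to 47.1%. WT replicates 1 and 4, at 40.9 and 47.1%, had the steepest length slopes of WT (0.096 and 0.24). WT replicates 2 and 3, at 27.3 and 30.5%, lay within the range of the mutant libraries (17.6 to 33.9%). Kdr, a vascular receptor that can act with neuropilins, had a log2 value of -0.71 in the double KO (edgeR adjusted p = 0.137). These values describe the ratio only, and the part of vessel content in the Plxnd1 result was not tested.

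**Figure D3:**
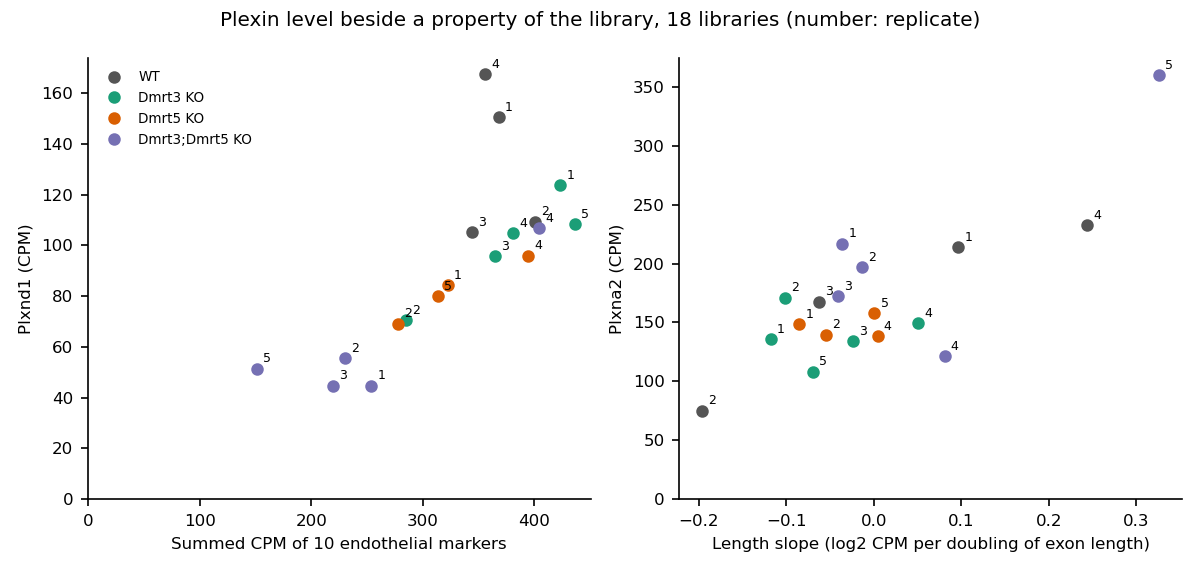
Left, Plxnd1 CPM against the summed CPM of 10 endothelial markers; right, Plxna2 CPM against the slope of log2 CPM on log2 exon length; each point is 1 of 18 libraries, coloured by genotype and numbered by replicate. Double KO replicate 4 has the highest marker sum (404) and Plxnd1 level (107) of its genotype on the left, and double KO replicate 5 is highest for both slope and Plxna2 (360 CPM) on the right.

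Plxnc1 (ENSMUSG00000074785, chromosome 10, 94790866 to 94944835) differed most clearly between the double KO and Dmrt3 KO. WT libraries held 42.4, 34.2, 44.2 and 58.1 CPM and Dmrt3 KO libraries 34.5, 42.7, 39.1, 41.7 and 34.4 CPM. Dmrt5 KO libraries held 46.8, 52.8, 44.8 and 50.4 CPM, and double KO libraries 75.9, 52.3, 59.4, 52.1 and 103 CPM. Each double KO library lay above each Dmrt3 KO library, and WT overlapped all 3 mutant genotypes. The log2 fold change of the double KO was 0.83 against Dmrt3 KO (SE 0.18, edgeR adjusted p = 0.00994), called in all 10 fits with a library left out (adjusted p 0.00412 to 0.0355). Against WT it was 0.62 (SE 0.19, edgeR adjusted p = 0.063), which DESeq2 placed at 0.0241, and against Dmrt5 KO 0.49 (edgeR adjusted p = 0.739). Sema7a, its ligand, differed by -0.00089 on the log2 scale between the double KO and Dmrt3 KO (edgeR adjusted p = 0.997).

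The class A plexins and the neuropilins, which carry class 3 and class 6 signals, gave no call in any comparison, and their spread within WT was wide. Of all tested genes, 7.14% were called in at least 1 comparison. Plxna4, a receptor of Sema6a and with Nrp1 of Sema3a, held 67.1, 3.79, 24.6 and 66.7 CPM in WT and 14.3, 12, 12.8, 23.5 and 7.80 CPM in Dmrt3 KO. It held 6.23, 6.30, 14.2 and 15.7 CPM in Dmrt5 KO and 5.33, 6.12, 4.18, 8.90 and 27.9 CPM in the double KO. WT replicates 1 and 4 were far above all other libraries and WT replicate 2 was below all of them, so that every mutant genotype overlapped WT. The log2 values against WT were -1.53, -1.93 and -1.95 in Dmrt3 KO, Dmrt5 KO and the double KO, with SE of 0.64 to 0.70 and edgeR adjusted p of 0.65, 0.268 and 0.0941. DESeq2 gave the double KO value an adjusted p of 0.0263, and the edgeR fit gave 0.0138 to 0.236 as single libraries were left out, with calls without WT replicate 2 or double KO replicate 5. With library length slopes entered as a covariate, Plxna4 stood at -2.19 in the double KO with an adjusted p of 0.000231.

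Plxna1, a signalling partner of neuropilins, held 219, 150, 182 and 278 CPM in WT and 171, 179, 174, 168 and 143 CPM in Dmrt3 KO. The Dmrt5 KO libraries held 205, 201, 192 and 213 CPM and those of the double KO 211, 231, 188, 192 and 345 CPM. All double KO libraries lay above all Dmrt3 KO libraries, with a log2 difference of 0.48 (SE 0.17, edgeR adjusted p = 0.142). Plxna2, the receptor of Sema6a, held 214, 75.1, 168 and 233 CPM in WT and 136, 171, 134, 150 and 108 CPM in Dmrt3 KO. The Dmrt5 KO libraries held 148, 140, 138 and 158 CPM and those of the double KO 217, 197, 173, 121 and 360 CPM. The genotypes overlapped for Plxna2 in every comparison, and its log2 value in the double KO against WT was 0.31 (SE 0.29, edgeR adjusted p = 0.7). Plxna3, an X-linked partner of Nrp2, held 150, 79.2, 119 and 209 CPM in WT and 119, 122, 112, 121 and 86.6 CPM in Dmrt3 KO. The Dmrt5 KO libraries held 122, 130, 120 and 153 CPM and those of the double KO 149, 134, 122, 105 and 263 CPM. Its values overlapped too, with a log2 value of 0.15 in the double KO against WT (SE 0.26, edgeR adjusted p = 0.879). For each of these 3 genes WT replicate 4 was the highest WT library and double KO replicate 5 the highest of all 18.

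Nrp1 held 41.3, 35.8, 33 and 57.3 CPM in WT and 34.5, 48.3, 38.5, 32.1 and 34.0 CPM in Dmrt3 KO. The Dmrt5 KO libraries held 35.7, 40.0, 33.7 and 34.9 CPM and those of the double KO 54.8, 36.2, 36.3, 34.0 and 56.9 CPM. The highest Nrp1 values were in WT replicate 4 and double KO replicates 1 and 5. Nrp2 held 134, 63.7, 89.5 and 175 CPM in WT and 106, 98.3, 103, 95.5 and 107 CPM in Dmrt3 KO. The Dmrt5 KO libraries held 111, 99.8, 124 and 120 CPM and those of the double KO 112, 95.5, 84.5, 112 and 192 CPM. Both co-receptors overlapped between all genotypes. Against WT the log2 values of Nrp1 ran from -0.21 to 0.06 and those of Nrp2 from -0.18 to 0.04, with SE of 0.19 to 0.26 and edgeR adjusted p of 0.717 to 0.981. Most of the signs of these small values, and of those of Plxna1 and Plxna3, changed when a single library was left out.

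**Figure D4:**
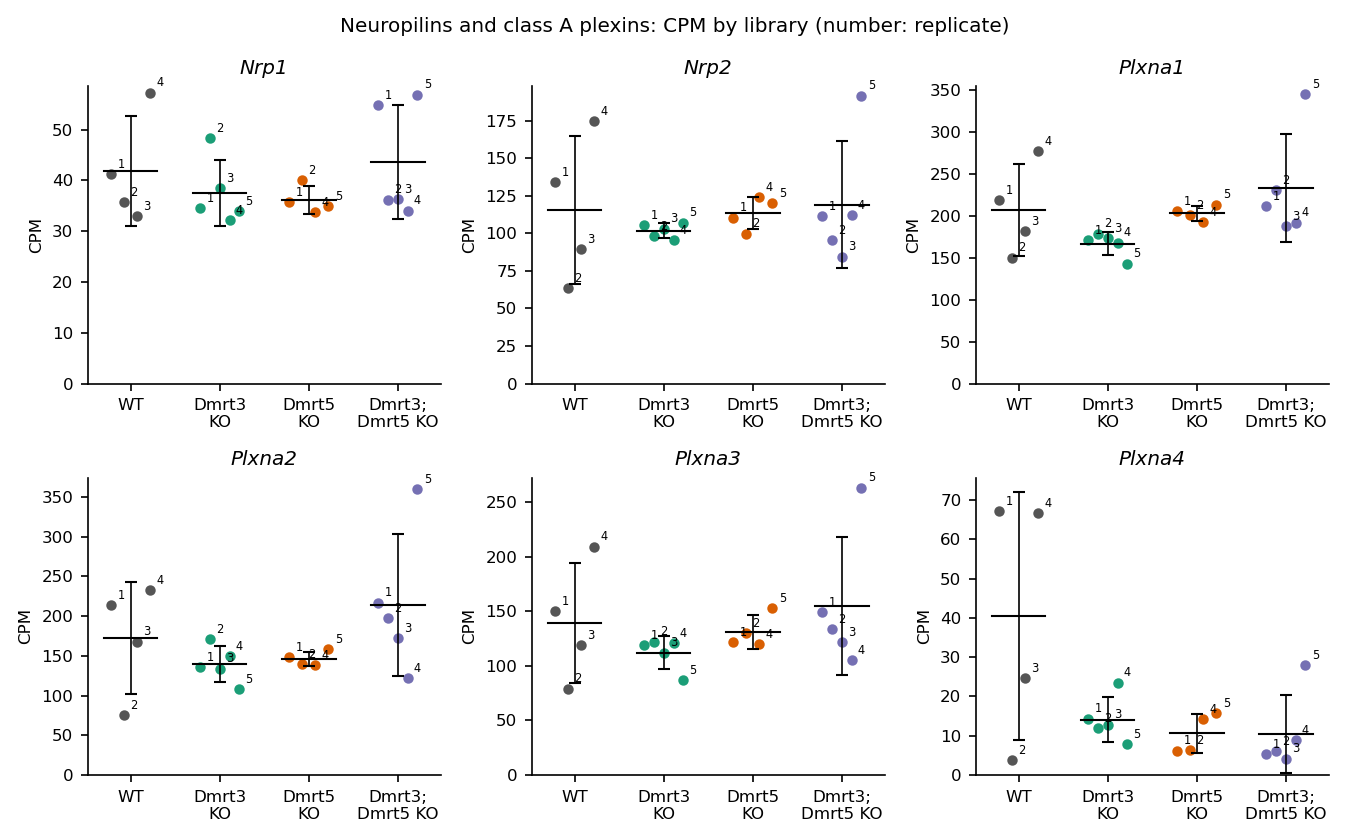
CPM of Nrp1, Nrp2 and the 4 class A plexins in the 18 libraries by genotype; numbers are replicates, lines the mean and bars the SD. WT replicate 4 and double KO replicate 5 stand high in most panels, and Plxna4 spans 3.79 to 67.1 CPM within WT alone.

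The class B plexins gave no call in any comparison, against 7.14% of all tested genes called in at least 1. Plxnb2 had log2 values of -0.29, -0.35 and -0.24 against WT in Dmrt3 KO, Dmrt5 KO and the double KO, and Plxnb1 of -0.37, -0.19 and 0.05, with edgeR adjusted p of 0.436 to 0.967. Across the 30 tested members, WT replicate 4 was the highest WT library for 19 and WT replicate 2 the lowest for 24, while among all genes these 2 libraries were highest and lowest for 34.4% and 38.4%. Double KO replicate 5 was the highest of its genotype for 21 members (35.9% of all genes). These are the libraries with the outlying length slopes named above, and in a further fit that slope was entered as a covariate. The slope was computed from the same counts, against the mean of all 18 libraries and not within genotype. The covariate can therefore also take up differences between genotypes, and the part of the slope in the members' values was not tested apart from them. In that fit the double KO against WT had 6 members lower (Plxna4, Plxnb2, Plxnd1, Sema4d, Sema5a and Sema6d) and 3 higher (Plxnc1, Sema4a and Sema6c), and 9.74% of all genes were called lower and 9.78% higher. The 3 genes called in this comparison with no covariate were among them.

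Counts over the whole family are set beside the share of all genes. In Dmrt3 KO against WT edgeR called 0 of 30 members, while 2 (Plxna4 and Sema4d) had an unadjusted p under 0.05, DESeq2 called 0, and 0.0123% of all 16236 genes were called (0.00616% higher, 0.00616% lower, and 7.16% with an unadjusted p under 0.05). Values lay above 0 for 10 and below 0 for 20 members with a median of -0.16, against -0.0036 over all genes. No member's Dmrt3 KO libraries were all above or all below WT, as 0.696% and 1.67% of all genes were. In Dmrt5 KO against WT 1 member was called higher and 0 lower, against 0.339% higher, 0.69% lower and 1.03% in either direction over all genes, and 7 members had an unadjusted p under 0.05 (11.3% of all genes). The median log2 value was -0.03, with 12 members above and 18 below 0, and -0.02 over all genes. Libraries did not overlap for 3 members above WT (Sema4a, Sema6b and Sema6c) and 1 below (Plxnd1), against 4.39% and 4.34% of all genes.

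In the double KO against WT 2 members were called higher and 1 lower, against 2.42%, 3.81% and, in either direction, 6.23% of all genes, and 6 had an unadjusted p under 0.05 (17.7% of all genes). Their median log2 value was 0.15, with 21 above and 9 below 0, and the median over all genes was 0.01. Only Sema4a lay above WT in every double KO library, where 2.57% of all genes did, and no member lay below in every one (3.4% of all genes). In the double KO against Dmrt3 KO, Plxnc1 and Sema4a were called higher and no member lower, against 1.74%, 1.96% and, in either direction, 3.7% of all genes. An unadjusted p under 0.05 was found for 9 members (17.4% of all genes). Libraries of 2 members (Plxna1 and Plxnc1) lay wholly above Dmrt3 KO and of 0 wholly below, against 2.29% and 2.51% of all genes. The median there was 0.22, against 0.01 over all genes. The double KO against Dmrt5 KO gave 0 edgeR calls and 0 DESeq2 calls among the members (0.333% of all genes by edgeR, 0.32% lower), 1 unadjusted p under 0.05 (Plxnc1, 4.71% of all genes) and a median of 0.14. No member was free of overlap there, against 0.407% of all genes above and 1.37% below. These comparisons share libraries with each other, and their values are therefore set side by side only. The medians and the counts of signs belong to the fit with no covariate, and not all of them kept their direction with the length slope entered. In that fit most members stood below 0 in the double KO against Dmrt5 KO and above 0 in Dmrt5 KO against WT. As many stood above as below 0 in Dmrt3 KO against WT. In the double KO against WT and against Dmrt3 KO most still stood above 0, but fewer than with no covariate.

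**Figure D5:**
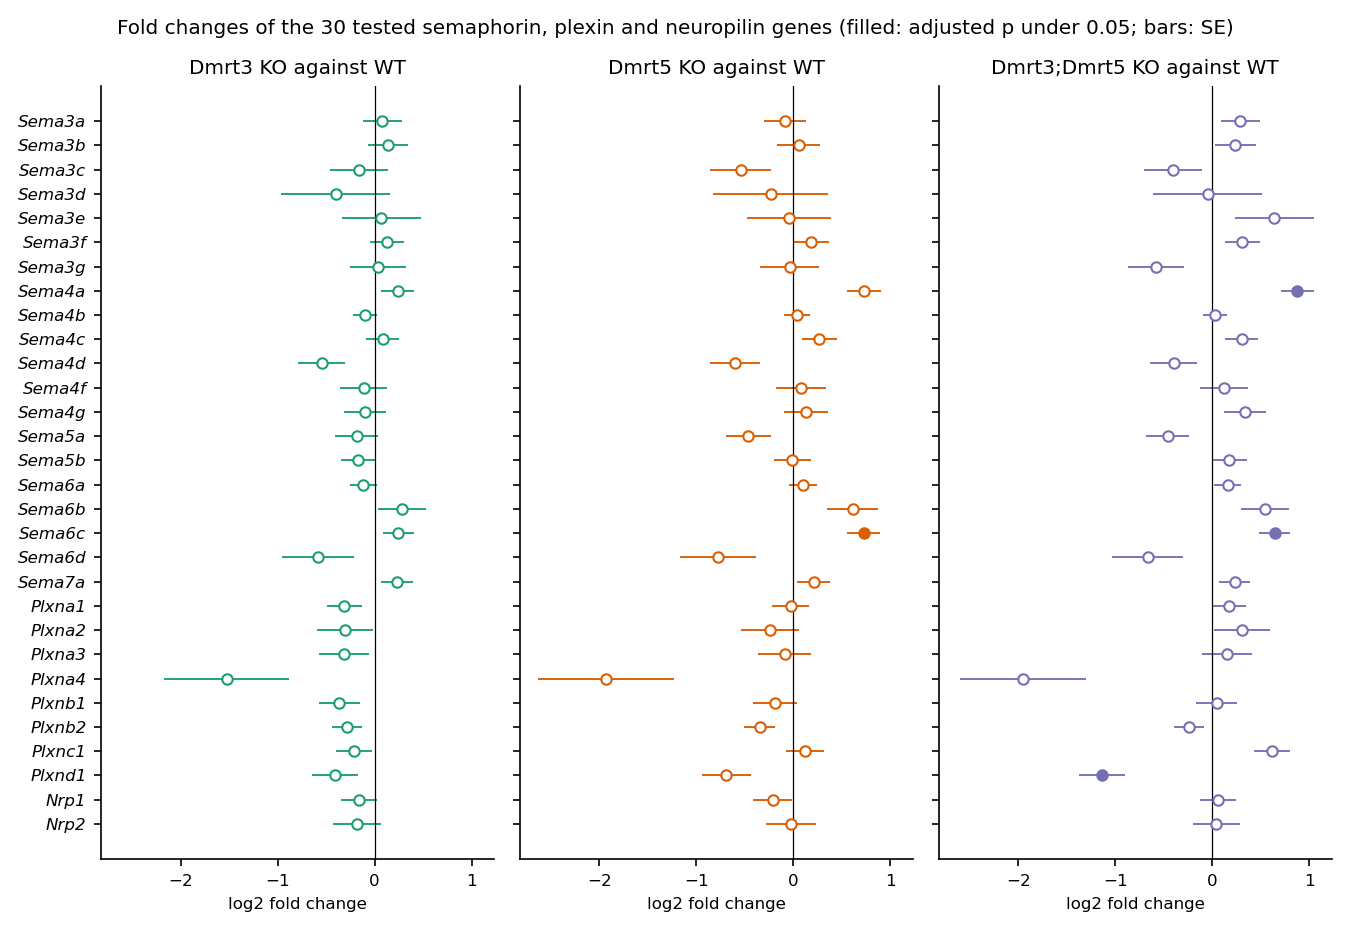
Log2 fold changes of the 30 tested genes in each mutant genotype against WT; bars are SE, and filled points have an adjusted p under 0.05. Filled points are Sema6c in Dmrt5 KO, and Sema4a, Sema6c and Plxnd1 in the double KO; the widest bars belong to Plxna4.

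The interaction, which on the log2 scale asks how far the double KO departs from the sum of the single KO effects, gave 0 edgeR calls and 0 DESeq2 calls among the members, against 0.142% of all genes by edgeR. Plxnc1 (0.71, SE 0.26) and Sema4d (0.75, SE 0.34) had an unadjusted p under 0.05 (9.22% of all genes), and both had an edgeR adjusted p of 0.529. Sema4a stood at -0.09 (SE 0.24), Sema6c at -0.33 (SE 0.23) and Plxnd1 at -0.04 (SE 0.34). The median over the 30 members was 0.30, with 23 above 0, and -0.01 over all genes. This count belongs to the fit with no covariate. With the length slope as a covariate the lean reversed. Most members then stood below 0, among them Plxna4 at -0.54 and Nrp2 at -0.38. Plxnc1 (0.39) and Plxna2 (0.28) were among those that stayed above 0.

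Downstream of the receptors, 32 further genes of semaphorin signalling were read as a list, chosen with earlier results of these data known. It held adhesion partners, kinases, collapsin response mediators, Mical oxidoreductases and GTPase regulators, and all 32 were tested. Only Dpysl4, a cytoplasmic collapsin response mediator, was called, higher in the double KO than in WT (log2 0.74, SE 0.16, edgeR adjusted p = 0.00696) and than in Dmrt3 KO (0.58, SE 0.15, adjusted p = 0.0324). This was 1 of 32 genes in each comparison, where 2.42% and 1.74% of all genes were called higher. Its libraries held 129, 137, 165 and 122 CPM in WT and 154, 167, 165, 179 and 110 CPM in Dmrt3 KO. Those of Dmrt5 KO held 194, 206, 186 and 215 CPM, and double KO libraries 208, 284, 217, 174 and 274 CPM. All libraries lacking Dmrt5 lay above every WT library, and double KO replicate 4 fell within the Dmrt3 KO range. No gene of the list was called lower in any comparison, where 3.81% of all genes were in the double KO against WT and 1.96% against Dmrt3 KO. The median log2 value of the list in the double KO against WT was 0.04.

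Some members share their locus with another transcript, and the library kit does not mark strand. Plxna1 and Plxnb1 overlap antisense genes that reached 2.85 and 5.79 CPM, and antisense genes over Plxna4 reached 0.198 CPM. No annotated gene overlapped Sema4a, Sema6c or Plxnd1, and a ribosomal RNA gene inside Plxnc1 reached 0.221 CPM.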

How the data were processed

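RNA of dissected cortex was sequenced in 18 libraries, prepared with RNeasy columns and the TruSeq RNA Sample Prep Kit v2 per the labels' protocols. The deposited files hold raw read counts per Ensembl gene, which the authors left without normalisation. Per the submitters' processing notes, build mm10 was used with STAR 2.3.0e, a read aligner, and featureCounts 1.4.6-p1, a read counter. For the annotation and strand setting, no source used here gives a name. Symbols, coordinates and exon lengths came from GENCODE M21 (GRCm38, the assembly of mm10) and matched 36602 of 38355 gene identifiers; the rest held 0.397% of counts. The 5 summary entries per file were 0.

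Counts were analysed in R 4.3.3 with edgeR 4.0.16: filterByExpr kept 16236 genes, TMM factors scaled the libraries, and the quasi-likelihood fit used all 18 libraries with a coefficient for each genotype. The SE was taken from the fold change and its F statistic. Other fits used DESeq2 1.42.0, its size factors, no filter, only the genotypes compared, the replicate number as a block, the length slope as a covariate, and each library left out in turn; 3 sets of libraries were left out after the data were seen. Permutation tests were exact and two-sided. The members, the lists and the rule for named genes were chosen with earlier results of these data known. By that rule every library is given for members called in at least 1 comparison, the neuropilins and the class A plexins, and from the signalling list up to 4 called genes per comparison. No libraries agreed within sampling noise (chi-square per gene of at least 11.9). The fit was tested on simulated data: in the simulated double KO against WT (16080 genes), calls reached 16% of genes simulated at 1.5-fold, 54% at 2-fold and 92% at 3-fold.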

Additional observations from a re-analysis of the deposited data

Results flagged for a closer look

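In 11 of 120 groups of libraries, 1 library lay further from the others than a 95% limit for outliers allows. Chance alone flags about 5% of groups when values are independent and normally distributed. The groups here share libraries, and the share flagged over all genes was not computed, so the count is not set apart from that of other genes. Double KO replicate 5 was the highest of its genotype for 35.9% of all genes. Double KO replicate 5 accounted for 6 of them, each as the highest of its genotype: Nrp2 at 192 CPM (the others 84.5 to 112), Plxna1 at 345 (188 to 231), Plxna3 at 263 (105 to 149), Plxna4 at 27.9 (4.18 to 8.90), Sema4g at 161 (77.9 to 98.4) and Sema6d at 62.0 (20.8 to 31.5). This library also had the steepest length slope of all 18. With that slope as a covariate, the log2 values of the double KO against WT were -0.03 for Nrp2, 0.10 for Plxna1, 0.07 for Plxna3, -2.19 for Plxna4, 0.26 for Sema4g and -0.74 for Sema6d; its part in the level of this single library was not tested. Double KO replicate 4 accounted for 3, again as the highest: Plxnd1 at 107 CPM (the others 44.7 to 55.5), Sema3d at 3.71 (0.685 to 1.33) and Sema3g at 13.5 (5.58 to 7.40). It held the most endothelial and mesenchymal marker transcripts of its genotype (404 and 2108 CPM summed), whose part was not tested. Dmrt3 KO replicate 5 accounted for the remaining 2, with Sema3d at 2.67 CPM (0.774 to 0.823) and Plxna3 at 86.6 CPM (112 to 122), the latter as the lowest. That library held 2741 CPM summed over the mesenchyme markers, the most of all 18.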

How the results depend on the processing

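Over 42 reported gene values, each recomputed in up to 27 other fits, 678 of 782 values kept direction and side of the threshold, 33 lost and 21 gained a call, and 50 changed sign; 19 of the 42 changed in no fit. The cause of the changes below was not tested. The sets left out after the data were seen were the library richest in mesenchyme markers of each genotype (replicates 4, 5, 4 and 4 of WT, Dmrt3 KO, Dmrt5 KO and double KO), the 2 libraries with transcripts of both sexes, and the 2 of steepest length slope.

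Of the 30 tested family genes, given with the share of all genes in the same fit, 1 was called higher in Dmrt5 KO against WT (0.339%). This became 2 with DESeq2 (1.07%) or the length covariate (1.37%), 0 with no filter (0.116%), 0 with the replicate block (1.13%), and 0 without the mesenchyme, sex or slope set (0.16%, 0.164% and 0.171%); leaving out single libraries gave 0 throughout. Family genes called higher in the double KO against WT numbered 2 (2.42%), and became 1 with only these genotypes (0.839%), 4 without the mesenchyme set (4.04%) and 1 without the sex set (1.72%), with 1 to 4 without single libraries. DESeq2 (3.19%) and the length covariate (9.78%) called Plxnc1 there besides Sema4a and Sema6c (Plxnc1 adjusted p 0.0241 and 0.0093). Other family counts within 1.5 times of the main count are not listed. Those called lower numbered 1 (3.81%), and became 2 with DESeq2 (4.5%), 0 with only these genotypes (1.52%), 6 with the length covariate (9.74%) and 2 without the sex set (3.1%), with 1 to 3 without single libraries. Against Dmrt3 KO the 2 higher calls (1.74%) became 1 with only these genotypes (0.968%), with the block (1.69%), with the length covariate (2.28%) and without the slope set (1.25%), and 1 to 3 without single libraries. The 0 lower calls there (1.96%) became 1 with DESeq2 (2.48%), with the block (2.44%) and without the mesenchyme set (4.37%), 4 with the length covariate (3.05%), and 0 to 2 without single libraries. Family genes whose libraries did not overlap WT numbered 0 in Dmrt3 KO (2.37%), and 3, 2 and 1 without the mesenchyme, sex and slope sets (5.32%, 9.08% and 3.24%), with 0 to 2 without single libraries. In Dmrt5 KO they numbered 4 (8.73%), and 7, 10 and 7 (18.8%, 18.5% and 10.7%), with 4 to 10 without single libraries. For the double KO they numbered 1 (5.97%), and 8 and 4 without the mesenchyme and slope sets (17.8% and 10.1%), with 1 to 5 without single libraries. With fewer libraries, groups overlap less by construction.

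Values near 0 changed sign. The Plxnd1 interaction became 0.0081 with no filter and 0.0411 without the sex set. Nrp1 became 0.0722 and 0.043 in Dmrt3 KO without the mesenchyme and slope sets, and 0.0142 in Dmrt5 KO without the mesenchyme set. Nrp2 became 0.131, 0.078 and 0.1007 in Dmrt3 KO, and 0.2207, 0.2072 and 0.2538 in Dmrt5 KO, with the length covariate and without the mesenchyme and slope sets. In the double KO it became -0.0264 with the block, -0.0316 with the covariate and -0.145 without the sex set. In Dmrt5 KO, Plxna1 became 0.1046, 0.176 and 0.1524, and Plxna3 0.1332, 0.2205 and 0.1806, with the covariate and without the mesenchyme and slope sets. Plxna3 became 0.0352 in Dmrt3 KO without the mesenchyme set and -0.0315 in the double KO without the sex set. Without single libraries the interaction ran from -0.343 to 0.0727 for Plxnd1 and from -0.1801 to 0.0215 for Sema4a, and Sema6c between the double KO and Dmrt5 KO from -0.2319 to 0.0293. Against WT, Nrp1 ran from -0.2693 to 0.024 in Dmrt3 KO and -0.0542 to 0.2479 in the double KO. Nrp2 ran from -0.3795 to 0.0841, -0.2224 to 0.2398 and -0.1968 to 0.3124 in Dmrt3 KO, Dmrt5 KO and the double KO. In Dmrt5 KO and the double KO, Plxna1 ran from -0.1527 to 0.1372 and -0.0111 to 0.3452, and Plxna3 from -0.2799 to 0.1667 and -0.1294 to 0.4113.

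Replicate numbers were not taken to pair the libraries, since the labels name no shared litter or batch and not every same-numbered pair passed a correlation of 0.1. Over 24 such pairs the correlation of deviations ran from -0.36 to 0.70 with a median of 0.24. Of these, 15 passed 0.1, and 4 libraries matched their own number best. Correlations of pairs with different numbers were not summarised, so whether some same-numbered libraries share a source was not tested. With the replicate block Sema6c in Dmrt5 KO had an adjusted p of 0.0508 and Sema4a against Dmrt3 KO of 0.0586, both no longer called, whereas Plxnd1 against Dmrt3 KO was called (0.0176). Over all genes, many counts of calls moved by more than 1.5 times. Lower calls in Dmrt3 KO went from 1 to 56 with DESeq2 and 88 with the length covariate. In Dmrt5 KO the 55 higher calls became 198 with DESeq2, 184 with the block and 223 with the covariate (14 to 55 without single libraries), and the 112 lower calls 226, 196 and 321, or 52 with only these genotypes (40 to 170). In the double KO against WT the 393 higher calls became 640 with DESeq2, 131 with only these genotypes and 1588 with the covariate (252 to 734), and the 619 lower calls 237 with only these genotypes, 1582 with the covariate and 1143 without the mesenchyme set (465 to 1272). Against Dmrt3 KO the 282 higher calls became 483 with DESeq2 and 148 with only these genotypes (167 to 555), and the 318 lower calls 495 with the covariate and 709 without the mesenchyme set (229 to 882). Lower calls against Dmrt5 KO went from 52 to 97 with DESeq2, 111 with the covariate and 19 with only these genotypes, and interaction calls from 0 higher and 23 lower to 66 and 61 with DESeq2. Changes of up to 2-fold were often missed in simulated data: 54% of genes changed 2-fold were called in the simulated double KO against WT. There 50 genes were changed at each fold and most genes not at all, whereas the data gave 1012 calls in this comparison. No length slope or marker difference was simulated, so the share of changes missed among the members was not tested.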
